A study of Mus musculus with 12 samples.

Results

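The genes of bile acid transport and of signalling through the farnesoid X receptor (FXR) were examined in the small intestine of male wild-type FVB mice. The 10 genes were taken as a set by name, Nr1h4, Nr0b2, Gpbar1, Fgf15, Slc10a2, Fabp6, Slc51a, Slc51b, Abcc3 and Abcc2, out of 19937 genes that had a probe set naming a single gene. Each of the 10 had 1 such probe set, so no choice between probe sets arose. Total RNA from small intestine was labelled with a whole-transcript kit and hybridised to Affymetrix arrays, and the series title places the diets in a study of cholesterol excretion by the intestine. The control group (6 arrays) had received a control high-fat (HF) diet, and the other group (6 arrays) a diet with little polyunsaturated relative to saturated fat, labelled low P/S. Both diets ran for 8 weeks, the labelled age is 8 weeks, and which end of the diet period that age refers to is not stated. The segment of small intestine that was taken, the time of day and the feeding state at dissection are not given in the labels. The series design text calls the arrays of a group biological replicates, and p-values set the difference between the diets against the spread between these replicates.

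Bile acids are made in the liver from cholesterol, secreted into the gut to dissolve fat, and recovered mainly in the ileum, the last segment of the small intestine. An ileal enterocyte takes them up from the lumen through the sodium-dependent transporter Slc10a2, carries them on the binding protein Fabp6, and releases them into portal blood through the heterodimer of Slc51a and Slc51b. Inside the cell they activate FXR, the nuclear receptor encoded by Nr1h4. FXR in turn raises transcription of the repressor gene Nr0b2 (small heterodimer partner, SHP), of Fabp6, of both Slc51 genes and of Fgf15, a hormone that tells the liver to make less bile acid.

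Probe set intensities on low P/S were higher 2.64-fold for Nr0b2, 1.92-fold for Slc51b, 1.5-fold for Slc10a2, 1.38-fold for Abcc3 and 1.35-fold for Nr1h4. These are ratios of intensities that may hold background, and are no measure of transcript amount. After a background subtraction chosen once the data had been seen they were 4.67, 2.03, 1.95, 1.47 and 1.39, in the same order. Slc51a, Fgf15, Gpbar1 and Abcc2 did not pass the test, and Fabp6 was too dim to be tested. Of the 9 genes tested, 5 passed as higher and 0 as lower, at an adjusted p under 0.05 in limma with Benjamini-Hochberg adjustment over 11962 genes. This is 55.6% of the 9, against 25.7% of all genes tested (17.8% higher and 7.87% lower). At an unadjusted p under 0.05 the count of lower genes was 1, Abcc2. The median difference of the 9 genes was 0.43 on the log2 scale, against 0.02 for all genes tested. The genes were chosen with earlier results of these data known, so this share is a description of them.

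Values are probe set intensities on a linear scale as deposited, with geometric means over 6 arrays. A difference is the log2 mean on low P/S minus that on control, with the standard error (SE) from limma after ±. Array medians lay between 91.9 and 99.5, and precision is limited by having 6 arrays per diet. Each probe set has its own brightness, so a place among the intensities of the array tells how far a probe set lies from background and is no measure of how abundant its transcript is relative to another. In whole tissue, fewer cells of a type and less RNA per cell cannot be told apart.

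The level of each gene on the array decides what could be measured of it. Olfactory receptor genes, which serve smell and have no known role in enterocytes, were used after the data had been seen as a gauge of unexpressed probe sets. Their 1027 probe sets had a median intensity of 46.3, with 90% of them between 35.8 and 73.8 (5th and 95th percentiles). Fabp6, with means of 46.0 in the controls and 47.1 under low P/S, was brighter than 50.5% of these receptors, so its probe set showed no signal beyond theirs. Fgf15 lay above 98.0% of the receptors but barely above the filter on dim genes (an intensity of 85.6, the 40th percentile of all genes). Gpbar1, Slc10a2 and Nr0b2 were brighter than at least 99.5% of the receptors, and brighter than 53.1%, 55.5% and 59.0% of all genes. These places use the mean over both diets, and that of Nr0b2 was raised by its low P/S arrays. In the controls alone Nr0b2 had a geometric mean of 87.8, below the 92.2 of Fgf15 and close to the filter. Abcc3, Nr1h4, Slc51b and Slc51a were brighter than 79.9% to 91.6% of all genes, and Abcc2 than 99.4%.

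**Figure D1:**
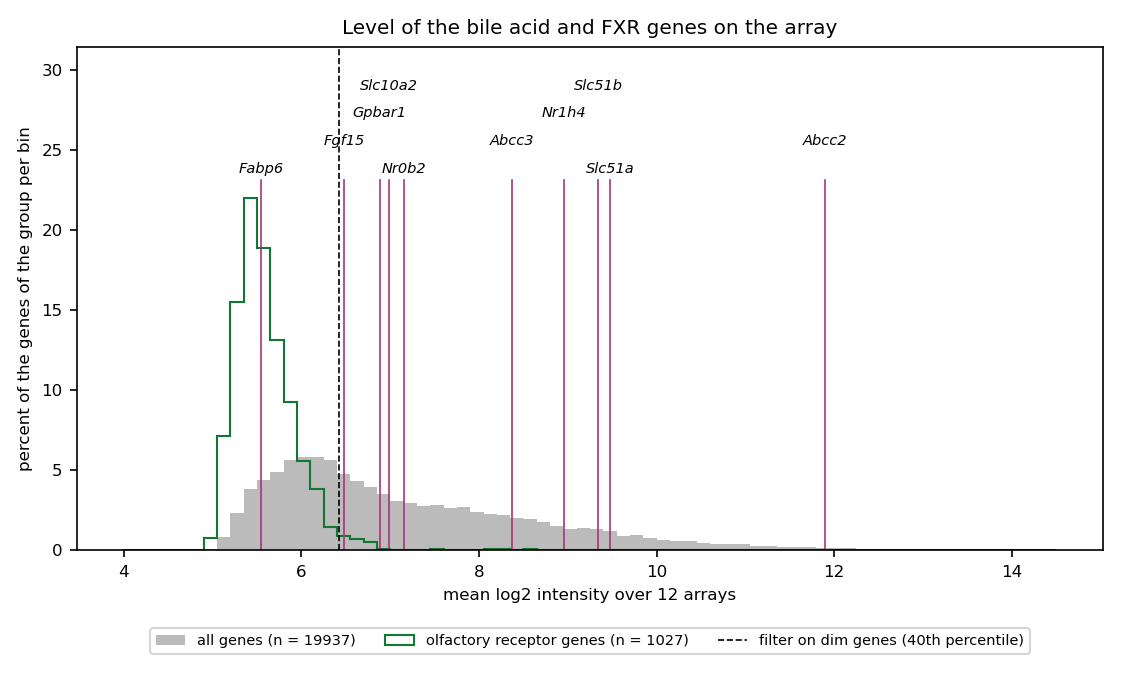
Distribution of the mean log2 intensity over 12 arrays for all 19937 genes (grey, percent of genes per bin) and for 1027 olfactory receptor genes (green outline), with a vertical line for each of the 10 bile acid and FXR genes and a dashed line at the filter on dim genes. Fabp6 lies within the receptor peak, Fgf15 lies next to the filter, and Abcc2 lies far to the right.

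Nr1h4 (probe set 10371784), the bile acid receptor, had intensities on the control diet with a lowest value of 362, a median of 425 and a highest of 521. On the low P/S diet they were 485, 583 and 684. Low P/S arrays lay above every control array in 4 of 6 cases, and arrays 3 and 6 of that diet lay below the highest control. The difference was 0.43 ± 0.10 (adjusted p = 0.00403). It kept its call in all 24 alternative settings and array omissions, with differences between 0.36 and 0.52.

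Nr0b2 (probe set 10508887), the repressor that FXR induces, had control intensities with a lowest value of 61.0, a median of 94.2 and a highest of 104. Under low P/S the same 3 values were 172, 234 and 306. The 6 low P/S arrays lay above all 6 controls, a separation upwards that 6.86% of all genes tested showed, against 3.9% downwards and 10.8% in either direction. Slc51b and Abcc3 also separated upwards, and 0 of the 9 downwards. The difference was 1.40 ± 0.15 (adjusted p = 1.88e-05), from a geometric mean of 87.8 to 232. The control geometric mean lay above the 95th percentile of the olfactory receptors (73.8) but close to the filter on dim genes (85.6). Control array 5, at 61.0, lay below that percentile. The fold moved with the treatment of background. Subtracting each array's median olfactory receptor intensity, with a floor of 16 that control array 5 reached, gave a 4.67-fold rise (2.22 ± 0.27, adjusted p = 5.05e-05). That subtraction was chosen after seeing the data.

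Promoter sequence is shown for Nr0b2, the gene that rose most, for Slc51b and Slc51a, whose products form 1 exporter, and for Fabp6, which gave no signal. The stretches are the 250 bases before the gene start, 5′ to 3′ on the gene's strand, from RefSeq on GRCm38.p6. Capitals mark matches to the inverted repeat AGGTCANTGACCT that FXR binds with its partner RXR, allowing up to 3 mismatches at its 12 fixed letters, and exact matches on either strand to TCAAGGTCA, TCAAGGCCA, CCAAGGTCA or CCAAGGCCA, spellings of the site of the nuclear receptor LRH-1. The inverted repeat reads the same on both strands.
Nr0b2 (chr4:133553126-133553375, + strand): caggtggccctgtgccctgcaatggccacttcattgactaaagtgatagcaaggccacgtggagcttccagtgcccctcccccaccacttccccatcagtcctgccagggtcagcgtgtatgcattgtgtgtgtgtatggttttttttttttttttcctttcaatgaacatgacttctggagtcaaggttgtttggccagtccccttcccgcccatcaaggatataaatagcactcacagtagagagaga
Slc51b (chr9:65422774-65423023, - strand): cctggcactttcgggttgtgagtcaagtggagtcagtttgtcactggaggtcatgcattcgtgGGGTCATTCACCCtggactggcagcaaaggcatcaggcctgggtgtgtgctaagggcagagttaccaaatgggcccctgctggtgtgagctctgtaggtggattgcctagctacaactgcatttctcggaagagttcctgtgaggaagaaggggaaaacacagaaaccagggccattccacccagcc
Slc51a (chr16:32487880-32488129, - strand): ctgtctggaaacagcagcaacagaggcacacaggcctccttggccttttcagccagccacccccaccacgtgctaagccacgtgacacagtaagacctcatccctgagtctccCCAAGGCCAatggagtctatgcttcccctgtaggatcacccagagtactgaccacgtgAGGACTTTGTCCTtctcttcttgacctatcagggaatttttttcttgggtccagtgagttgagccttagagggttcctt
Fabp6 (chr11:43601563-43601812, - strand): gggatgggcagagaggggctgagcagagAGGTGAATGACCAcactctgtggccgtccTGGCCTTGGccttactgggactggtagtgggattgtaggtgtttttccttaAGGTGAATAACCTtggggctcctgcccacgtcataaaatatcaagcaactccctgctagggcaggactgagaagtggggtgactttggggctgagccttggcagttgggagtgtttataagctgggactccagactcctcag
The Fabp6 stretch held 2 inverted repeat matches, AGGTGAATGACCA and AGGTGAATAACCT, which begin 222 and 142 bases before the gene start and have 2 mismatches each. Matches with at most 2 mismatches occurred in 0.959% of 32851 promoter stretches of this length. It also held TGGCCTTGG, an LRH-1 spelling on the other strand, 193 bases before the start, and 1.92% of all stretches held such a spelling. The Slc51a stretch held AGGACTTTGTCCT, 79 bases before the start and with 3 mismatches, and CCAAGGCCA 137 bases before it. Slc51b had GGGTCATTCACCC, 187 bases before the start and with 3 mismatches, a number that 9.63% of all stretches reach. The Nr0b2 stretch had no match to either motif, which says only that these letters are not in this window. The table held 8 of the 10 genes, and in the stretches of Nr1h4, Gpbar1, Slc10a2 and Abcc2 neither motif was matched. The matches are descriptions of sequence, and binding was not measured.

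**Figure D2:**
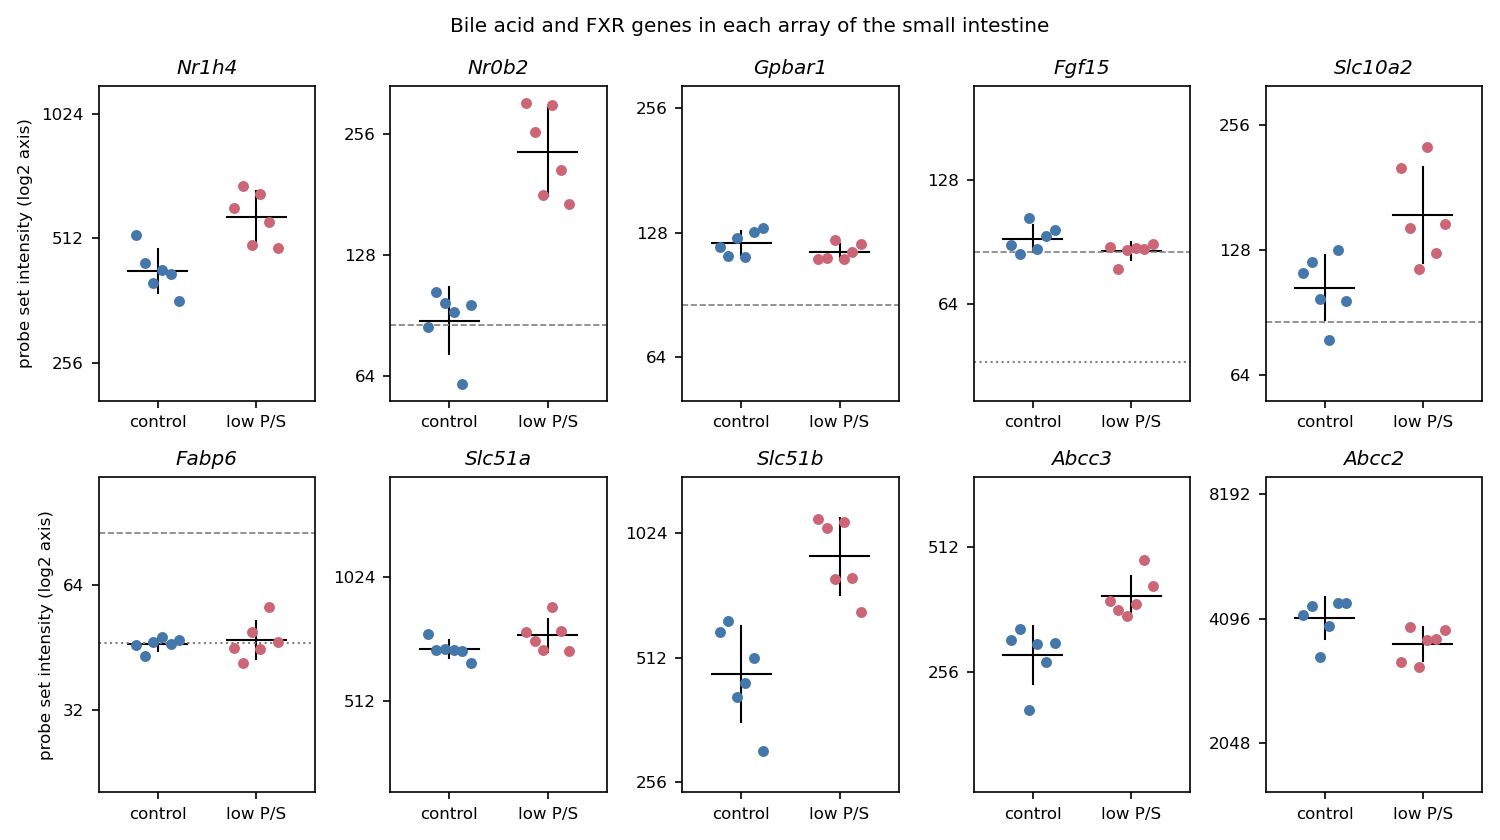
Probe set intensity (log2 axis) of the 10 genes in each of 6 control arrays (blue) and 6 low P/S arrays (red), arranged within a group by array number. Horizontal bars are geometric means, vertical bars 1 SD of the log2 values, the dashed grey line the filter on dim genes and the dotted line the median of olfactory receptor genes, where these fall within a panel. The diets do not overlap for Nr0b2, Slc51b and Abcc3.

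Gpbar1 (probe set 10347307) encodes the bile acid receptor TGR5 of the cell surface, which is known from enteroendocrine cells and macrophages. Its control intensities ran from 112 through a median of 121 to 131, and those on the low P/S diet from 111 through 113 to 123. The groups overlapped and the difference was -0.07 ± 0.05 (adjusted p = 0.340), with a 95% interval of -0.18 to 0.04. Markers of macrophages were higher on the low P/S diet in 6 of 6 tested cases and those of enteroendocrine cells in 3 of 7. Of all genes tested, 17.8% were higher. The summed intensity of the 8 listed macrophage markers was 908 to 1060 in the controls and 1114 to 1455 on the low P/S diet. The part of either cell type in the value of Gpbar1 was not tested.

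Fgf15 (probe set 10559373), the ileal hormone under FXR control, had control intensities with a lowest value of 84.7, a median of 91.3 and a highest of 104. Under low P/S they were 77.7, 87.4 and 89.6, so the groups overlapped. The difference was -0.10 ± 0.06 (adjusted p = 0.199), with an interval of -0.22 to 0.02, and with the background subtracted it was -0.17. No diet difference in Fgf15 was detectable at this signal.

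Slc10a2 (probe set 10576901), the uptake transporter of the apical membrane, had control intensities with a lowest value of 77.6, a median of 105 and a highest of 128. On the low P/S diet they were 115, 146 and 227. Low P/S arrays 1, 2, 4 and 6 lay above every control, while arrays 3 and 5 lay within the control range. The difference was 0.58 ± 0.15 (adjusted p = 0.0114). With the background subtracted the rise was 1.95-fold (0.96 ± 0.25, adjusted p = 0.0103), and with an ordinary variance per gene the call ended (adjusted p = 0.0539).

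Fabp6 (probe set 10385337), the bile acid binding protein of ileal enterocytes, had intensities between 43.1 and 47.8 in the controls and between 41.4 and 56.7 under low P/S. The highest value was that of low P/S array 5. Geometric means differed by 0.03 on the log2 scale, with group SDs of 0.05 and 0.15. No diet effect on Fabp6 could be measured at the background level of this probe set.

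Slc51a (probe set 10439068) and Slc51b (probe set 10594519) encode the subunits of the basolateral exporter, each of which needs the other to reach the membrane. Slc51a ran from 635 through a median of 683 to 746 on the control diet and from 677 through 735 to 864 on the low P/S diet. Its groups overlapped, and its difference of 0.11 ± 0.06 did not pass (adjusted p = 0.193), with an interval of -0.02 to 0.24. Slc51b ran from 305 through 478 to 628 in the controls and from 661 through 924 to 1109 on the low P/S diet. All 6 low P/S arrays of Slc51b lay above all controls, and the difference was 0.94 ± 0.16 (adjusted p = 0.000772). It stayed between 0.82 and 1.13 and kept its call in 24 of 24 alternatives.

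Abcc3 (probe set 10389894) encodes MRP3, an exporter of conjugated bile acids and glucuronides in the basolateral membrane. Its control intensities were 208 at the lowest, 301 at the median and 325 at the highest, with control array 3 the lowest. On the low P/S diet they were 349, 376 and 476, all above the controls. The difference was 0.47 ± 0.10 (adjusted p = 0.00294). Abcc2 (probe set 10463308) encodes MRP2, which pumps conjugates across the apical membrane. It had 3311, 4288 and 4478 in the controls. Its values under low P/S were 3124, 3649 and 3920. The groups overlapped and the difference of -0.21 ± 0.08 did not pass (adjusted p = 0.0621). Abcc2 passed as lower with quantile normalization (-0.25, adjusted p = 0.0186) and when control array 3 was omitted (-0.27, adjusted p = 0.0105). It also passed when array 2 of the low P/S diet was omitted (-0.24, adjusted p = 0.0476).

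Among the low P/S animals, arrays 6, 3 and 5 had the 3 lowest values of Nr1h4, of Nr0b2 and of Slc51b alike, and array 6 was also the lowest for Slc51a. The other genes that passed as higher were ordered differently. From lowest to highest, the low P/S arrays of Slc10a2 were 3, 5, 2, 6, 1 and 4. Those of Abcc3 were 3, 2, 4, 1, 6 and 5, with arrays 6 and 5 the highest. In the controls, arrays 6 and 3 were the lowest for Nr1h4 and Slc51b, but array 5 was the lowest for Nr0b2. These orders were noticed after the values were seen and were not tested.

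Whether pairs of these genes changed unequally was tested on the log2 ratio of the pair within each array, by exact two-sided permutation tests over the 12 arrays for 7 pairs, with Benjamini-Hochberg adjustment over the 7. Slc51b rose against its partner Slc51a by 0.83 (95% interval 0.46 to 1.21), with all 6 low P/S ratios above all control ratios (exact permutation p = 0.00216, adjusted p = 0.00379). Nr0b2 rose by 1.50 against Fgf15 (interval 1.01 to 1.93) and by 0.97 against Nr1h4 (interval 0.60 to 1.34), and the basolateral Abcc3 rose by 0.68 against the apical Abcc2 (interval 0.48 to 0.87). In these 3 pairs, too, the ratios of the diets did not overlap, and the exact permutation p was 0.00216 (adjusted p = 0.00379). No smaller p is possible with 6 arrays per diet. Slc10a2 rose against Fgf15 by 0.68 (interval 0.24 to 1.12, exact permutation p = 0.00649, adjusted p = 0.00909), with 5 of 6 low P/S ratios above all controls. The remaining ratios involve Fabp6, which lay at background in 12 of 12 arrays, so they show no unequal change of a pair and their values are given for completeness. Slc10a2 against Fabp6 gave 0.55 (interval 0.03 to 1.09, exact permutation p = 0.0390, adjusted p = 0.0455). Omitting any one of arrays 1, 3, 4 and 6 of the control diet, or of arrays 1, 2, 4 and 6 of the other, lost this call, and the exact permutation adjusted p then reached 0.0844. Fabp6 against Fgf15 gave 0.13 (interval -0.01 to 0.29, exact permutation adjusted p = 0.0736), and passed without control array 4 (0.16, exact permutation adjusted p = 0.0303). Ratios without Fabp6 show unequal change and do not say which gene of a pair moved, and those to the dim Fgf15 carry its background.

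**Figure D3:**
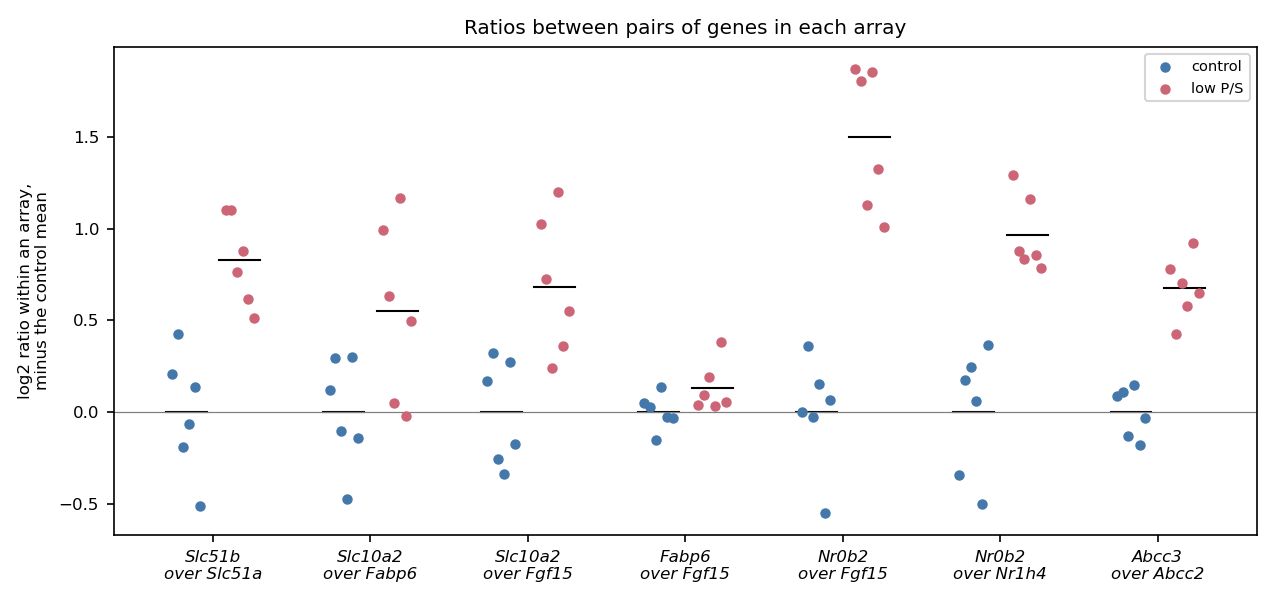
Log2 ratio of 2 genes within each array, minus the mean of that ratio in the controls, for 7 pairs, with 6 control arrays (blue) and 6 low P/S arrays (red) and bars at the group means. The diets do not overlap for Slc51b over Slc51a, for Nr0b2 over Fgf15 or Nr1h4, and for Abcc3 over Abcc2.

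Covariation between animals was examined for the 6 pairs among Slc10a2, Fabp6, Fgf15 and Slc51b within each diet, 12 correlations over 6 arrays each. None of the 12 passed by exact permutation (smallest adjusted p = 0.456 for Pearson and 0.350 for Spearman), and 0 had an unadjusted exact permutation p under 0.05 by either measure. Slc10a2 with Slc51b had r = 0.55 in the controls (exact permutation p = 0.263; rho = 0.66, exact permutation p = 0.175) and r = 0.68 on the low P/S diet (exact permutation p = 0.165; rho = 0.60, exact permutation p = 0.242). Without the 2 arrays farthest from the median of Slc10a2, r was 0.94 and 0.07. Fgf15 with Slc51b had r = -0.65 in the controls (exact permutation p = 0.164; rho = -0.77) and -0.41 on the low P/S diet (exact permutation p = 0.469; rho = -0.03). Without the 2 arrays farthest from the median of Fgf15, r was -0.62 and 0.88. Slc10a2 with Fgf15 had r = -0.08 in the controls (exact permutation p = 0.892; rho = -0.14) and 0.20 on the low P/S diet (exact permutation p = 0.75; rho = 0.60). Without the 2 arrays farthest from the median of Slc10a2, r was -0.93 and -0.26. Pairs with Fabp6 compare a gene with a probe set at background in every array, and their correlations are not read as covariation of expression. The genes whose deviations from the diet means were most like those of Nr0b2 over the 12 arrays were E2f2 (r = 0.91), Bloc1s5 (r = 0.89) and Gaa (r = 0.88). For Slc10a2 they were Acot9 (r = 0.93), Atp6v1d (r = 0.90) and Toe1 (r = 0.90). They are the highest among the 11962 genes once unnamed loci, predicted genes and receptor or immunoglobulin segments were passed over, and are given without a test.

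Other genes of the pathway were read from 7 lists with 91 symbols, of which 61 were bright enough to test. Of these, 7 were higher, 14 lower and 40 did not pass, 34.4% in all against 25.7% of all genes tested, with a median difference of -0.07. For comparison with the counts that follow, 17.8% of all genes tested were higher and 7.87% lower. The diets did not overlap, with low P/S higher, in 6.86% of all genes tested, and with low P/S lower in 3.9%. Among 13 tested nuclear receptors and partners of FXR, 2 rose and 2 fell, and 9 did not pass (median -0.09). Nr5a2, which encodes LRH-1, an activator of Nr0b2, rose 1.17-fold (0.22 ± 0.06, adjusted p = 0.0173). Nr1h3, which encodes the sterol receptor LXR alpha, rose 1.20-fold (0.26 ± 0.07, adjusted p = 0.0159). The glucocorticoid receptor gene Nr3c1 was 1.15-fold lower, with controls of 875 to 979.7 and low P/S arrays of 727 to 857 that did not overlap (adjusted p = 0.0086). The vitamin D receptor gene Vdr was 1.14-fold lower (adjusted p = 0.0469). The call of Vdr was lost in 14 of 24 alternatives (adjusted p up to 0.110). These were the omission of any one of control arrays 1, 4, 5 and 6 or of arrays 1, 3, 4 and 5 of the low P/S diet, median centring, no filter, a trended robust prior, an ordinary variance, the replicate block (0.0531) and background subtraction. Hnf4g, a factor of enterocyte differentiation, had a difference of -0.15 ± 0.06 (adjusted p = 0.0869, or 0.0194 with quantile normalization). Quantile normalization called 6 of these receptors lower.

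Of 12 coregulators of nuclear receptors, 1 rose, 1 fell and 10 did not pass (median -0.02). They were the related coactivator genes Ppargc1b and Ppargc1a, and they moved apart. Ppargc1a was 1.70-fold lower, from 732 to 429 (-0.77 ± 0.12, adjusted p = 0.000463), with controls of 659 to 861 and low P/S arrays of 310.3 to 580.4. Ppargc1b rose 1.28-fold (0.35 ± 0.06, adjusted p = 0.00109), and its groups did not overlap either. Ncoa2 had a difference of -0.14 ± 0.05 (adjusted p = 0.0530) and passed in 5 of 24 alternatives, quantile normalization (0.0137), the stricter filter, the pseudocount, an ordinary variance and the omission of array 6 of the low P/S diet. Nrip1, a corepressor, had a difference of 0.08 ± 0.09 (adjusted p = 0.515). Quantile normalization called 4 coregulators lower.

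Of 7 tested genes known as FXR targets in other settings, 1 rose, 1 fell and 5 did not pass (median -0.01), and 5 more, Abcb4, Abcb11, Nos2, Fetub and Slc10a1, were too dim to test. Pltp, which transfers phospholipids between lipoproteins, rose 1.13-fold (adjusted p = 0.0238), a call lost when control array 5, or array 2 or 4 of the low P/S diet, was omitted (adjusted p up to 0.0554). Cyp3a11, a cytochrome P450 that hydroxylates bile acids and drugs, was 1.45-fold lower (-0.54 ± 0.11, adjusted p = 0.00221), with low P/S arrays of 1353 to 1792 below controls of 1794 to 2825. Sdc1 had a difference of -0.11 ± 0.05 (adjusted p = 0.0811) and passed as lower with quantile normalization (-0.16, adjusted p = 0.0200) and with an ordinary variance (adjusted p = 0.0435). Il18 had a difference of -0.16 ± 0.08 (adjusted p = 0.179, or 0.0349 with array 5 of the low P/S diet omitted).

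Bile acid synthesis belongs to the liver, and 7 of its 17 listed genes were too dim to test, including Cyp7a1, the rate-limiting enzyme, and Cyp8b1. Of the 10 tested, 1 rose, 2 fell and 7 did not pass (median -0.04). Cyp27a1, the mitochondrial sterol hydroxylase that also acts outside the liver, was 2.44-fold lower, with controls of 694 to 1285 and low P/S arrays of 352 to 518 (-1.29 ± 0.13, adjusted p = 9.56e-06). Baat, which conjugates bile acids with taurine and glycine, was 1.26-fold lower (adjusted p = 0.0016) at 113 against 89.5, near the filter. Amacr, a racemase of the side chain, rose 1.19-fold (adjusted p = 0.00765). The bright peroxisomal gene Hsd17b4 and the acyl-CoA synthetase gene Slc27a2 had differences of 0.17 ± 0.07 and 0.21 ± 0.08 (adjusted p = 0.0661 and 0.0613). Both passed with the replicate block (adjusted p = 0.0292 and 0.0130), without control array 1, and without control arrays 1 and 2 together. Hsd17b4 passed also without control array 5, and Slc27a2 without control array 2 and with array weights (0.0375).

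Of 7 tested transporters of bile acids and organic anions besides the 10 genes, 2 rose, 3 fell and 2 did not pass (median 0.05), and 8 were too dim to test, including the liver carriers Slc10a1 and Slco1b2. Abcg2, an apical efflux pump, rose 1.40-fold (0.49 ± 0.10, adjusted p = 0.00171). Abcb1a, the drug pump P-glycoprotein, was 1.49-fold lower (-0.58 ± 0.13, adjusted p = 0.00404) without overlap, and Abcc6 was 1.33-fold lower (adjusted p = 0.00231). Slco2b1 (1.21-fold higher) and Abcc5 (1.17-fold lower), named after their values were seen, also passed.

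Of 5 tested genes of Fgf15 production and its receptors, 1 fell and 4 did not pass (median -0.06). Malrd1, whose product promotes Fgf15 output by enterocytes, was 1.18-fold lower, at 1416 against 1667 with no overlap between the diets (-0.23 ± 0.05, adjusted p = 0.00264). The receptor genes Fgfr2, Fgfr3 and Fgfr4 had differences of 0.10, -0.07 and 0.10 and did not pass, and Klb, the co-receptor, was too dim to test. Of 8 tested genes of bile acid detoxification, 5 fell and 3 did not pass (median -0.29), where 7.87% of all genes tested fell. Besides Cyp3a11 they included Cyp2b10, a cytochrome P450 (1.63-fold lower, -0.71 ± 0.11, adjusted p = 0.000453), and Ugt2b34, a glucuronosyltransferase (1.25-fold lower, adjusted p = 0.00107), each without overlap. The other 2, named after their values were seen, were Cyp3a13 and Sult2b1. Cyp3a25 had a difference of -0.12 ± 0.09 (adjusted p = 0.341). Cross-hybridization within the Cyp3a and Ugt2b families was not tested.

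**Figure D4:**
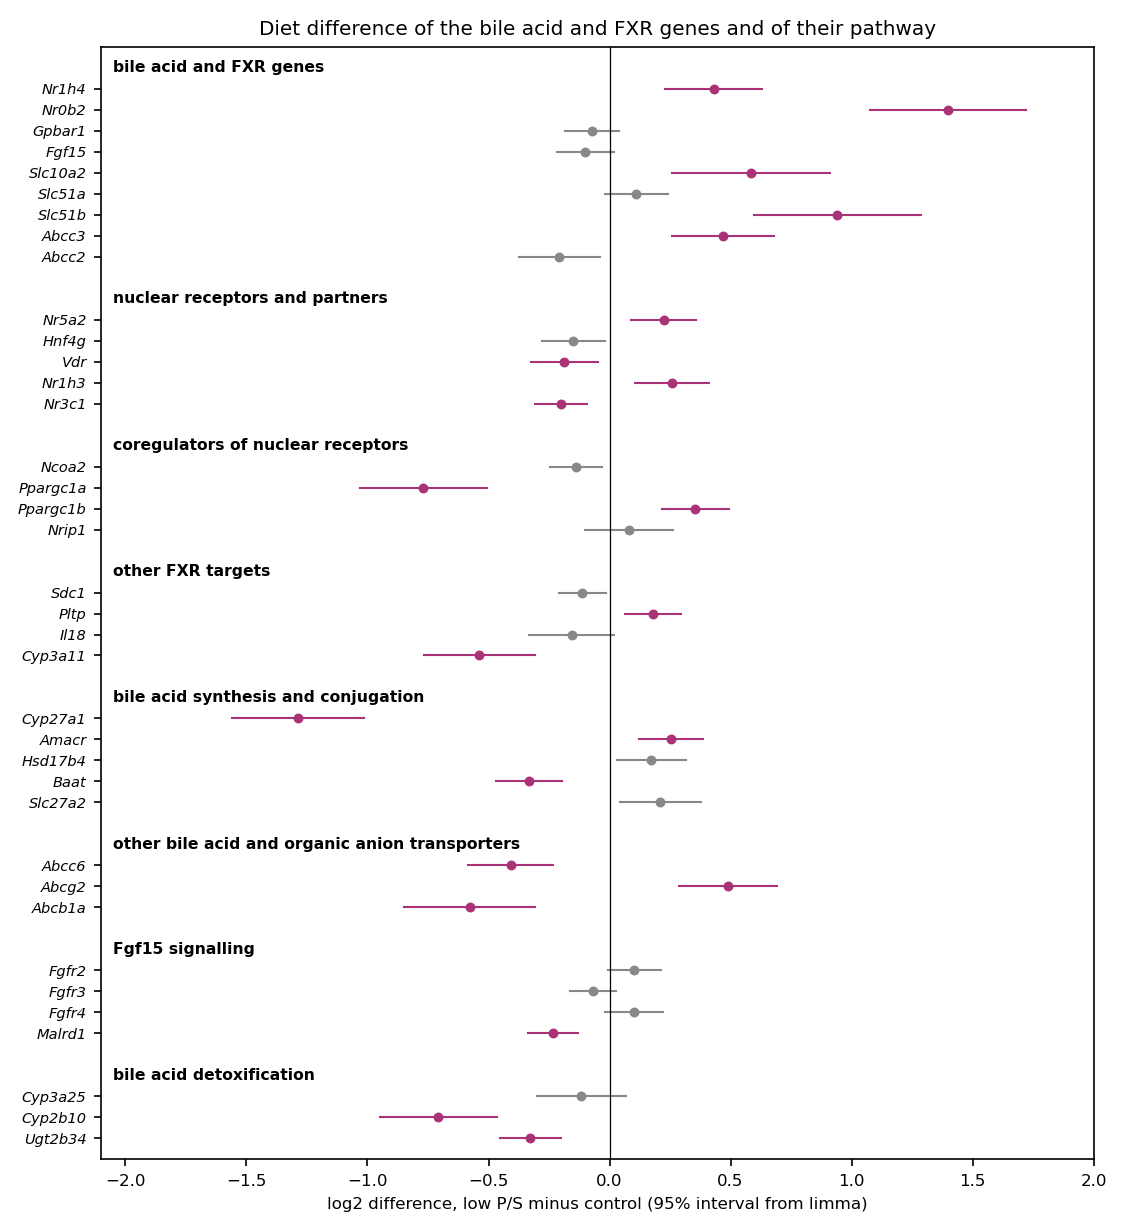
Log2 difference (low P/S minus control, x axis) with its unadjusted 95% limma interval for the 9 tested bile acid and FXR genes and the named genes of the 7 pathway lists, purple where the adjusted p was under 0.05 and grey otherwise. Nr0b2 and Slc51b lie farthest to the right, and Cyp27a1 lies farthest to the left.

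The labelled tissue was checked against marker lists. For comparison with their counts, 17.8% of all genes tested were higher and 7.87% lower. General enterocyte genes were bright (Fabp2 at 9793 in the controls and 9724 under low P/S, Anpep at 8053 and 5199), and 5 of 9 were lower on the low P/S diet, 3 with median centring. Their summed intensity was 41996 to 54242 in the controls and 39841 to 43613 on that diet. Of 9 tested distal markers 4 were lower (3 with median centring, 5 with quantile normalization) and 1, Pyy, higher. The sum of the 10 listed fell from between 13965 and 16481 to between 8537 and 10572. Cubn (geometric mean 4469 in the controls, 979 under low P/S) and Clec2h (5151 and 3412) carried most of that fall. Pyy, Nts, Gcg and Ccl6 had higher means under low P/S, so the sum does not describe the distal markers as a whole. The count of higher distal markers fell to 0 without control array 3, 4, 5 or 6 or array 1, 2 or 4 of the low P/S diet, and with a trended prior or an ordinary variance, and rose to 2 without control array 2, alone or with control array 1. The brightest of them were Clec2h (1.51-fold lower) and Tcn2 (1.18-fold lower, adjusted p = 0.0517 with median centring), and Cubn, a receptor gene for vitamin B12 uptake named after its value was seen, was 4.56-fold lower. Of 9 proximal markers 5 were higher and 1 lower, the lactase gene Lct (1.93-fold lower). The sum of the 10 listed overlapped between the diets, at 13371 to 17420 in the controls and 12804 to 15660 under low P/S. The higher count fell to 3 without control array 3, or array 1, 3 or 5 of the low P/S diet, and with an ordinary variance. The call of Fabp1 (8596 and 9959) was lost in 16 of 24 alternatives (adjusted p up to 0.106). These were the omission of any one of 8 arrays (1, 3 and 6 of the controls, 1, 2, 3, 5 and 6 of the other diet) or of control arrays 1 and 2 together, median centring, no filter, array weights, a trended prior, an ordinary variance, the replicate block (0.0529) and background subtraction. Slc10a2, itself a distal gene, passed as higher while most distal markers that passed were lower, and Fabp6, a defining ileal gene, was at background in both diets. The part of segment and of cell makeup in the values of the bile acid genes was not tested. Smooth muscle markers (Acta2, Myh11) did not pass by limma in 6 of 6 cases, and 0 of the 6 had an unadjusted p under 0.05. Of the hepatocyte, exocrine pancreas and adipocyte markers, 2, 1 and 2 were bright enough to test (Alb and Ttr, Ctrb1, Adipoq and Plin1), and limma called 0 of these 5, of which Plin1 alone had an unadjusted p under 0.05. Without control array 1 Adipoq and Plin1 passed as lower (adjusted p = 0.0150 and 0.00486). Ctrb1 passed as lower when array 3 of the low P/S diet was omitted (adjusted p = 0.0423). Summed intensities of these 3 lists overlapped between the diets, at 532 to 895 against 457 to 1131 for hepatocytes, 311 to 369.8 against 314 to 359.9 for pancreas and 263 to 500.4 against 275 to 405 for adipocytes. The sums include the markers too dim to test, so they hold much background.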

How the data were processed

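The authors deposited 1 table of probe set intensities on a linear scale for 12 arrays, labelled from 500 ng of total RNA without removal of ribosomal RNA, per the labels. Their summarization and normalization are not given in the sources used here, and array medians were close but not equal. Of 34760 probe sets, 21640 named 1 gene symbol, and the brightest per gene was used. The log2 of the deposited intensity was compared with limma 3.58.1 in R 4.3.3 (lmFit and eBayes, diet as the only term, two-sided), after a filter on dim genes at the 40th percentile of mean intensity, with Benjamini-Hochberg adjustment over 11962 genes and a threshold of 0.05. Pairs of genes were compared by exact permutation of within-array log2 ratios, with 95% intervals from inverting the test (Python 3.11.15, SciPy 1.17.1). The steps were tested on simulated data. The genes and lists were chosen with earlier results of these data known. In each pathway list the 3 genes of smallest p and the 2 brightest were named, and of the marker lists the 2 brightest. Promoters came from a RefSeq table on GRCm38.p6. Alternatives covered scaling, the filter, probe set averaging, a pseudocount of 16, array weights, the variance prior, a replicate block and omitted arrays, and background subtraction was added after seeing the data.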

Additional observations from a re-analysis of the deposited data

Results flagged for a closer look

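Single arrays stood apart from the other 5 of their diet, by Dixon's criterion at 95%, in 7 of 138 groups examined, and chance alone gives about 1 in 20 groups. Among the bile acid genes this was Fgf15 in low P/S array 2, with a log2 intensity of 6.28 (77.7 on the linear scale), below the next value of 86.4. Of the pathway genes, Il18 was low in control array 2 at 8.77 (437) and Fgfr4 was low in control array 5 at 6.45 (87.1). Of the marker genes, Acta2 was low in low P/S array 6 at 11.01 (2067), Myh11 was high in control array 4 at 11.30 (2516), and Ctrb1 was high in low P/S array 3 at 6.85 (115). Gaa, whose deviations resembled those of Nr0b2, was low in control array 5 at 7.03 (130.5), and Nr0b2 was also lowest in that array.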

How the results depend on the processing

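Over 24 alternatives the 10 genes gave between 3 and 6 calls. Nr1h4, Slc51b and Abcc3 kept their calls in all 24 and Nr0b2 in the 23 that tested it, and Slc10a2 in 22 of 23. The filter at the 60th percentile left 3 called, 3 of them higher, because Nr0b2 and Slc10a2 were no longer tested. Lower calls went from 0 to 1 (Abcc2) with quantile normalization. Leaving out single arrays gave 5 to 6 calls, 0 to 1 of them lower. Among all genes, quantile normalization called 1543 lower instead of 942, with 53.5% of calls higher against 69.4% in the main analysis. The ratio of Slc10a2 to Fabp6 lost its call with quantile normalization (0.52) and when control arrays 1 and 2 were both omitted (0.66), and ranged from 0.43 to 0.67 without single arrays. Fabp6 lay at background, so this ratio does not test unequal change. That of Fabp6 to Fgf15 ranged from 0.082 to 0.16. The cause was not tested. The labels do not say that a number marks a shared litter, cage or day, so the numbers were not treated as pairs. Deviations of same-numbered arrays had correlations of -0.11 to 0.42. Arrays numbered 3 were each other's best match between the diets (0.42), as were those numbered 6 (0.31). Whether same-numbered arrays share an origin was not tested. With the number as a replicate block, 3530 genes were called against 3074, and Abcc2 was the 1 lower call among the bile acid genes (adjusted p = 0.0108 by limma). Vdr, Fabp1 and Toe1 lost their calls, while Hsd17b4 and Slc27a2 gained theirs. For pairs of genes this setting used an exact sign-flip test on the differences between same-numbered arrays, which has fewer arrangements than the permutation test. By that test Slc10a2 to Fabp6 lost its call (0.55, sign-flip adjusted p = 0.109). Of 51 tested named genes, 5 changed sign somewhere, none with a call: Alb to -0.030 and Atp6v1d to -0.036 (quantile normalization), Fabp2 to 0.016 (median centring), and without single arrays Alb (-0.25 to 0.29), Fabp2 (-0.053 to 0.038), Ttr (-0.064 to 0.014) and Acta2 (-0.15 to 0.0065). Signal over background limits Fabp6 and Fgf15.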
